A study of Homo sapiens with 12 samples.

Results

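YAP1, its paralog WWTR1 (the gene for TAZ), the DNA-binding partners TEAD1, TEAD2, TEAD3 and TEAD4, and the competing cofactor VGLL4 form the transcription complex at the end of the Hippo pathway. These 7 genes were taken by symbol from the deposited count table and the table of TPM, a level scaled for transcript length and library size, where each matched 1 of the 58051 genes listed, and 34866 of those genes had at least 1 count. The libraries are total RNA of MDA-MB-231, an established triple-negative breast cancer cell line, transfected with control siRNA (siControl), a pool of siRNAs against NELFA (siNELFA), a pool against YAP1 (siYAP) or both pools together (siNELFA+siYAP), with 3 libraries in each of the 4 groups. The labels give 50 to 100 nM siRNA and name both 48 and 72 h after transfection for RNA extraction, and the methods of the study give 72 h for the sequenced RNA. All groups are cells of 1 line that received a transfected siRNA, so the knockdown is transient and partial, and only mRNA is measured here. The comparison asks how far YAP1 mRNA was lowered, whether WWTR1 or a TEAD gene moved along with it or in the opposite direction, and whether the loss of NELFA altered any of the 7.

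YAP1 and TAZ do not bind DNA themselves. When the Hippo kinases MST and LATS are inactive, both proteins enter the nucleus and act through a TEAD factor, which recognises the sites in target genes such as CTGF, CYR61 and ANKRD1. VGLL4 binds TEAD in place of YAP1 and TAZ and lowers this output. NELFA is a subunit of the negative elongation factor, which holds RNA polymerase II near the start site of many genes, and MDA-MB-231 cells carry an inactivating mutation of the Hippo regulator NF2 and are a common model of high YAP1 activity.

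On GRCh38, YAP1 (ENSG00000137693) lies on chromosome 11 from 102110447 to 102233424 on the plus strand and TEAD1 (ENSG00000187079) on the same chromosome from 12674421 to 12944737, also on the plus strand. WWTR1 (ENSG00000018408) and VGLL4 (ENSG00000144560) are both on the minus strand of chromosome 3, from 149517235 to 149736714 and from 11556069 to 11771350. TEAD2 (ENSG00000074219) lies on chromosome 19 from 49340595 to 49362457 on the minus strand, TEAD3 (ENSG00000007866) on chromosome 6 from 35473597 to 35497079 on the minus strand, and TEAD4 (ENSG00000197905) on chromosome 12 from 2959330 to 3040676 on the plus strand. All 7 are annotated as protein-coding (GENCODE 44), with merged exons of 2275 bp for TEAD4 up to 10700 bp for TEAD1.

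The start-site windows of YAP1 and TEAD3 are shown because NELF acts close to the start site. YAP1 stands for the siRNA target. TEAD3 is a TEAD gene whose normalized counts were higher in every knockdown library, with siYAP alone too, than in any siControl library. In TPM these groups overlapped, and how many other genes separate in this way was not counted. Each window holds 250 bases before the start site and 50 after it, from RefSeq on GRCh38.p14, at chr11:102110197-102110496 on the plus strand for YAP1 and at chr6:35497030-35497329 on the minus strand for TEAD3, written 5′ to 3′. Capitals mark the letters GGAATG, the core that TEAD factors recognise.
YAP1: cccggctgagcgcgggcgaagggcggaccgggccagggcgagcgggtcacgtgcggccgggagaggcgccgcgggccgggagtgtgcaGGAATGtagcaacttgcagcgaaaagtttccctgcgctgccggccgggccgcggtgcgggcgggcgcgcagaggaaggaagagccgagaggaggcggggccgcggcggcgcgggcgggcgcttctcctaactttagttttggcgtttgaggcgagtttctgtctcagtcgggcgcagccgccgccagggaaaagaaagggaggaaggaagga
TEAD3: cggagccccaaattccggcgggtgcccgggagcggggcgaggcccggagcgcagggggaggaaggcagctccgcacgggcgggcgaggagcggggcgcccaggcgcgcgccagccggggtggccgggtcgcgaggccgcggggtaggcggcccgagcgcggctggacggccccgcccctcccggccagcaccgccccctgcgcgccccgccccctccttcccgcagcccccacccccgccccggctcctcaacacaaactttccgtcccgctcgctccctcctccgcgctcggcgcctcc
The TEAD letters occurred once in the YAP1 window, on the strand of the gene, with the first base at position -162 from the start site. Searched on both strands, GGAATG stood in 14.03% of 35116 promoter windows of the same length, the AP-1 letters TGANTCA in 7.71% and TATAAA in 11.5%. Of the 5 member genes with a RefSeq window here, which leaves out TEAD1 and TEAD4, no other window held GGAATG, and none held TGANTCA. One of the windows of VGLL4 held TATAAA, at position -174. GC content was 70.7% in the YAP1 window and 81.3% in the TEAD3 window, against a median of 58.7% over all windows. A match of letters is a description of the window and not a bound site.

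The libraries held 9608145 to 18803104 assigned counts. Values below are CPM, counts scaled to one library size with TMM factors, and fold changes are log2 values from the quasi-likelihood test of edgeR with their standard error (SE), where a gene is called at an adjusted p (Benjamini-Hochberg over all tested genes) under 0.05. The NELFA label held in every library, with 25.3, 27.5 and 27.9 CPM in siControl, 9.96, 9.06 and 7.11 in siNELFA, 33.8, 25.3 and 22.2 with siYAP and 8.20, 6.73 and 6.35 with both pools. Its log2 fold change was -1.63 in siNELFA (adjusted p = 0.381 by edgeR, or 0.000385 by edgeR in a fit that pairs libraries of the same number) and -1.94 in siNELFA+siYAP (adjusted p = 0.0199 by edgeR). In deposited TPM, NELFA with siYAP stood at 20.75, 67.76 and 12.65 on 351, 354 and 360 counts. The TPM of a single library can therefore depart from its counts, which limits the TPM values below. The markers VIM and CD44 were high in every library, at 1182 CPM or more and 927 CPM or more, while ESR1 and PGR had at most 6 counts and ERBB2 45.7 to 80.5 CPM. Replicate 1 of siControl, siNELFA and siYAP stood apart from the rest of its group. The biological coefficient of variation was 0.325, 0.305 and 0.318 over the 3 libraries of these groups and 0.119, 0.146 and 0.139 over replicates 2 and 3, against 0.0595 over the 3 siNELFA+siYAP libraries. Both epithelial markers on the list were highest in those 3 libraries, with 230, 599 and 169 counts of CDH1 against at most 17 in the other 9, and 16.7, 15.5 and 18.3 CPM of EPCAM against 4.66 to 9.56. Markers of other tissues were low, with 0 counts of ALB throughout, at most 4 of PTPRC and 1.76 to 8.88 CPM of PECAM1. The part of these libraries in the results was not tested, and values without them stand beside each call of the 7 genes. The names of the siNELFA+siYAP libraries carry 1 shared first index and a second number, unlike the other groups, whereas their titles call them replicates 1 to 3 and the methods call all replicates biological. The p-values measure the spread between these libraries as labelled. Whether the 3 siNELFA+siYAP libraries are independent was not tested. If they are not, the p-values of comparisons with that group are too small and the intervals too narrow. In bulk RNA, fewer cells expressing a gene and less RNA per cell cannot be told apart.

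YAP1 mRNA fell strongly with siYAP, both with and without siNELFA. It stood at 302, 269 and 247 CPM in the siControl libraries and at 292, 247 and 254 CPM with siNELFA. With siYAP the values were 46.2, 45.5 and 37.7 CPM, and with siNELFA+siYAP 44.1, 40.7 and 40.1 CPM. The libraries with and without the YAP1 pool did not overlap, and within each kind they did. The log2 fold change against siControl was -2.67 (SE 0.19, n = 3 against 3, adjusted p = 0.0162 by edgeR) in siYAP, which left 15.8% of the control level, and -2.72 (SE 0.13, adjusted p = 0.00118 by edgeR) in siNELFA+siYAP, which left 15.2%. These comparisons share the siControl libraries. Against siNELFA, the double knockdown lowered YAP1 by the same size, with a log2 fold change of -2.67 (SE 0.12, adjusted p = 0.000493 by edgeR). Same-numbered libraries of siControl and the single knockdowns deviated together, and the fit with that number as a block gave -2.67 in siYAP (adjusted p = 1.05e-05 by edgeR). Without replicate 1 on both sides YAP1 was at -2.63 in siYAP (adjusted p = 0.000382 by edgeR), and without siControl replicate 1 it was at -2.64 in siNELFA+siYAP (adjusted p = 7.79e-12 by edgeR). Without siNELFA replicate 1 the double knockdown was at -2.59 against siNELFA (adjusted p = 2.60e-09 by edgeR). The double-knockdown fit without siControl replicate 1 called 4531 of 18587 tested genes, and 228 of 18286 were called without siNELFA replicate 1. The siYAP call was lost in 5 of the 6 fits that left out 1 library, with adjusted p up to 0.315 by edgeR and log2 fold changes from -2.74 to -2.58, and was kept only without siControl replicate 1. The call in siNELFA+siYAP was lost without double-knockdown replicate 1 (adjusted p = 0.0514 by edgeR) and kept in the other 5 such fits.

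No effect of siNELFA on YAP1 mRNA itself was detected. The log2 fold change was -0.04 with a 95% interval of -0.42 to 0.33 in the fit of 6 libraries and of -0.24 to 0.15 with the replicate block. Adding siNELFA to siYAP gave -0.05 by counts, with an interval of -0.37 to 0.26. In deposited TPM the siNELFA libraries (94.8, 91.2 and 92.0) lay below the siControl libraries (111.9, 112.7 and 98.0), but on the TPM scale the median of all genes also shifted, by -0.19 in siNELFA and -0.13 in siNELFA+siYAP against siControl on the log2(TPM + 1) scale. With both pools YAP1 averaged 14.1 TPM against 17.8 TPM with siYAP, a log2 ratio of -0.34, where the median of all genes was at -0.056. The groups did not overlap in TPM but overlapped in CPM, and their libraries are not treated as paired.

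**Figure D1:**
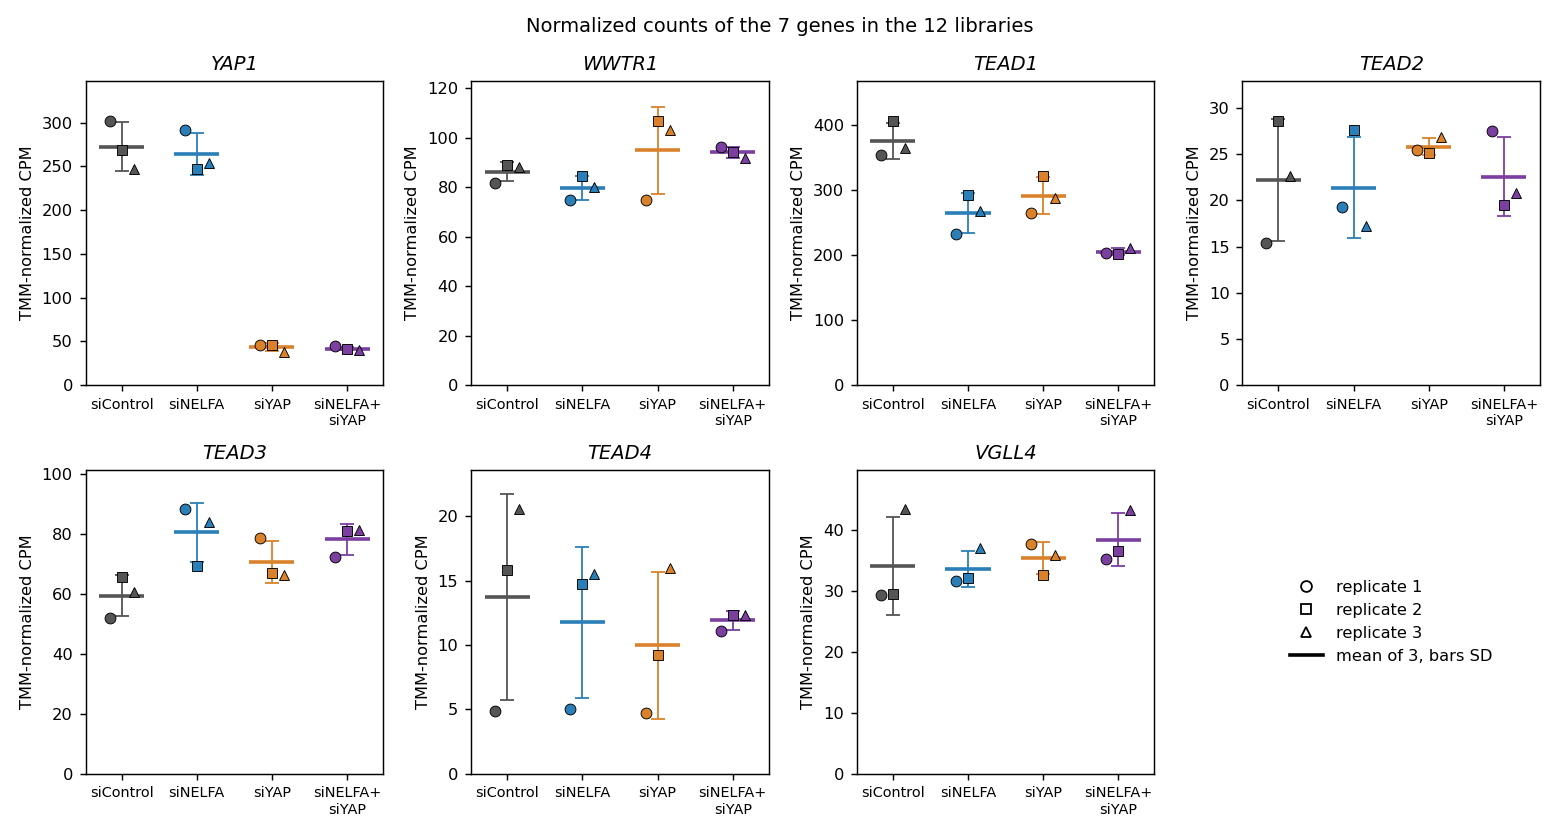
TMM-normalized CPM of the 7 genes (y axes, linear from 0) in the 4 siRNA groups (x axes), with 1 point per library, a line at the mean of 3 and bars of 1 SD. YAP1 fell from 247 to 302 CPM to at most 46.2 CPM wherever siYAP was used, and TEAD1 was lowest in the 3 siNELFA+siYAP libraries, at 201 to 211 CPM.

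WWTR1, the gene for TAZ and the closest relative of YAP1, was not called in any comparison, and whether it was higher with siYAP depended on the libraries used. Its values were 81.9, 89.0 and 88.0 CPM in siControl and 74.7, 84.4 and 80.1 CPM in siNELFA. In siYAP they were 74.7, 106.9 and 103.0 CPM, and in siNELFA+siYAP 96.4, 94.3 and 91.8 CPM. Replicates 2 and 3 of siYAP lay above every siControl library and replicate 1 below them, while all 3 double-knockdown libraries lay above siControl by a small margin. The log2 fold change in siYAP was 0.13 (SE 0.19), with a 95% interval of -0.32 to 0.58, and with the replicate block 0.12, with an interval of -0.18 to 0.41. In siNELFA+siYAP it was 0.11 (SE 0.10), with an interval of -0.13 to 0.35, so a rise beyond 1.28-fold lies outside that interval. Without replicate 1 on both sides, siYAP gave 0.25 (SE 0.10, 95% interval 0.025 to 0.47), an interval above 0, at an adjusted p of 0.996 by edgeR. In TPM, WWTR1 was higher in siYAP than in siControl in 3 of 3 same-numbered pairs, with a mean of 132.2% of siControl and overlapping groups. On log2(TPM + 1) by limma the change in siYAP was 0.40 (SE 0.23, adjusted p = 1.00). WWTR1 in siNELFA was at -0.11 (interval -0.46 to 0.23), and the double knockdown against siNELFA was at 0.24 (interval -0.0012 to 0.48, adjusted p = 0.735 by edgeR).

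With YAP1 lowered and WWTR1 not, WWTR1 was the larger part of the pair in both groups that received siYAP. Per length, in deposited TPM, siControl held 107.5 ± 8.24 TPM of YAP1 (SD, n = 3) and 34.2 ± 7.10 of WWTR1, and siYAP 17.8 ± 1.77 and 45.2 ± 7.56. WWTR1 made up 20.4%, 27.2% and 24.4% of the summed TPM of the pair in the siControl libraries and 23.98%, 24.9% and 27.3% in siNELFA. It made up 65.2%, 76.1% and 72.8% with siYAP and 70.3%, 74.5% and 76.4% with both pools. The sum of both genes was 141.7 ± 12.6 TPM in siControl against 63.0 ± 5.79 with siYAP and 53.9 ± 5.44 with both pools (SD, n = 3), with no overlap between libraries with and without the YAP1 pool. An exact permutation test of 3 against 3 libraries cannot go below p = 0.1, and no other test was run on these sums. By TPM, WWTR1 came after YAP1 and TEAD1 in siControl and after TEAD1 alone in siYAP. From counts per kilobase of merged exon the WWTR1 share was lower throughout, at 19.4 ± 2.18% in siControl and 62.1 ± 6.38% in siYAP.

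TEAD1, the most abundant TEAD gene by TPM, was lower in each knockdown and lowest in the double knockdown. The siControl libraries held 354, 407 and 365 CPM. With siNELFA they held 232, 293 and 269 CPM, with siYAP 265, 322 and 288 CPM, and with siNELFA+siYAP 203, 201 and 211 CPM. Every siControl library was above every knockdown library, and every double-knockdown library was below all single-knockdown libraries. In siNELFA+siYAP the log2 fold change was -0.88 (SE 0.10, 95% interval -1.12 to -0.64, adjusted p = 0.0319 by edgeR), so TEAD1 fell to 54.2% of control, and DESeq2 gave an adjusted p of 1.26e-06. In siNELFA it was -0.50 (SE 0.16, adjusted p = 1.00 by edgeR), and in the fit that pairs libraries by number it was -0.51 (SE 0.09, adjusted p = 0.0079 by edgeR), so the call rests on the pairing. Without replicate 1 of either group, and unpaired, it was -0.45 (SE 0.10, adjusted p = 0.127 by edgeR). Each pair was lower, with log2 ratios of -0.61, -0.48 and -0.44. In siYAP it was -0.37 (SE 0.16), short of the threshold both without the block (adjusted p = 1.00 by edgeR) and with it (adjusted p = 0.504 by edgeR), with pair ratios of -0.42, -0.34 and -0.34. These 3 comparisons share the siControl libraries.

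TEAD1 was lower again with both pools than with either alone, short of the adjusted threshold by edgeR in the fits of 6 libraries, while DESeq2 called the difference from siYAP (-0.51, adjusted p = 0.0275). The double knockdown was at -0.51 against siYAP (SE 0.11, adjusted p = 0.141 by edgeR) and at -0.37 against siNELFA (SE 0.11, adjusted p = 0.735 by edgeR). The test of the difference between the siYAP effect with and without siNELFA gave -0.0015 for TEAD1 (95% interval -0.39 to 0.39). An interaction of a size within that interval is not excluded. The same test gave -0.0054 for YAP1 (interval -0.41 to 0.40), 0.10 for WWTR1 (interval -0.34 to 0.54) and -0.29 for TEAD3 (interval -0.73 to 0.16). Without replicate 1 of the single-knockdown group, the adjusted p by edgeR was 0.000232 against siYAP, at -0.57, and 0.00538 against siNELFA, at -0.46. Against siControl without its replicate 1 it was 1.01e-07, at -0.92. These fits called 2937 of 17773, 228 of 18286 and 4531 of 18587 tested genes, in that order. The call against siControl was lost without siControl replicate 2 (adjusted p = 0.14 by edgeR) and without double-knockdown replicate 1, 2 or 3 (adjusted p of 0.377, 0.389 and 0.363 by edgeR). In TPM, where TEAD1 stood at 97.5 ± 11.3 in siControl, 66.3 ± 11.8 in siNELFA, 87.9 ± 7.56 with siYAP and 51.3 ± 1.02 with both pools (SD, n = 3), limma on log2(TPM + 1) gave an adjusted p of 0.118 for the double knockdown, and the siYAP libraries overlapped siControl.

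By counts, TEAD3 was higher in each knockdown than in siControl, without passing the adjusted threshold in the fits of 6 libraries. It held 52.0, 65.8 and 60.7 CPM in siControl, 88.2, 69.4 and 84.0 in siNELFA, 78.8, 66.8 and 66.3 with siYAP and 72.4, 81.1 and 81.5 with both pools. All knockdown libraries were above all siControl libraries, and the knockdown groups overlapped each other. TEAD1 was lowest with both pools, while TEAD3 averaged 78.3 CPM there and 80.5 CPM in siNELFA. The log2 fold change of TEAD3 was 0.44 in siNELFA (SE 0.18, adjusted p = 1.00 by edgeR), with the block 0.43 (adjusted p = 0.0832 by edgeR). It was 0.24 in siYAP (SE 0.18, adjusted p = 1.00 by edgeR) and 0.38 in siNELFA+siYAP (SE 0.13, adjusted p = 0.191 by edgeR). Without siControl replicate 1, which held the lowest value, the double knockdown was at 0.31 and was called (adjusted p = 0.0132 by edgeR). That fit called 4531 of 18587 tested genes. In TPM the siControl and knockdown libraries overlapped, at 23.0 TPM on average in siControl and 26.9 to 27.0 in the knockdowns. Across the 12 libraries TEAD1 and TEAD3 had a Pearson r of -0.74, and over the 9 libraries other than the replicate 1 libraries of siControl, siNELFA and siYAP one of -0.83, where the libraries share groups and scaling.

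TEAD2 and TEAD4, the less abundant TEAD genes, had overlapping values in all groups. TEAD2 held 15.4, 28.6 and 22.7 CPM in siControl, 19.3, 27.6 and 17.2 in siNELFA, 25.5, 25.1 and 26.8 with siYAP and 27.5, 19.5 and 20.8 with both pools. Its log2 fold changes against siControl were -0.06 (interval -0.74 to 0.62) with siNELFA, 0.21 (-0.38 to 0.80) with siYAP and 0.0052 (-0.58 to 0.59) with both. TEAD4 held 4.87, 15.8 and 20.6 CPM in siControl, 5.02, 14.8 and 15.5 in siNELFA, 4.71, 9.20 and 16.03 with siYAP and 11.1, 12.3 and 12.4 with both pools. The 3 lowest values, on 45, 64 and 49 counts, were those of the replicate 1 libraries with high CDH1, and no other library lay below 9.20 CPM. The part of the cells or RNA behind CDH1 in these values was not tested. With these libraries in, the TEAD4 fold change in siNELFA+siYAP was -0.23 (SE 0.44, 95% interval -1.26 to 0.80, adjusted p = 0.816 by edgeR). Without siControl replicate 1 it was -0.61 (SE 0.15, adjusted p = 0.00781 by edgeR), in a fit that called 4531 of 18587 tested genes. The interval for siYAP ran from -1.82 to 0.90, so the fit of 6 libraries does not exclude changes of TEAD4 within that range.

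**Figure D2:**
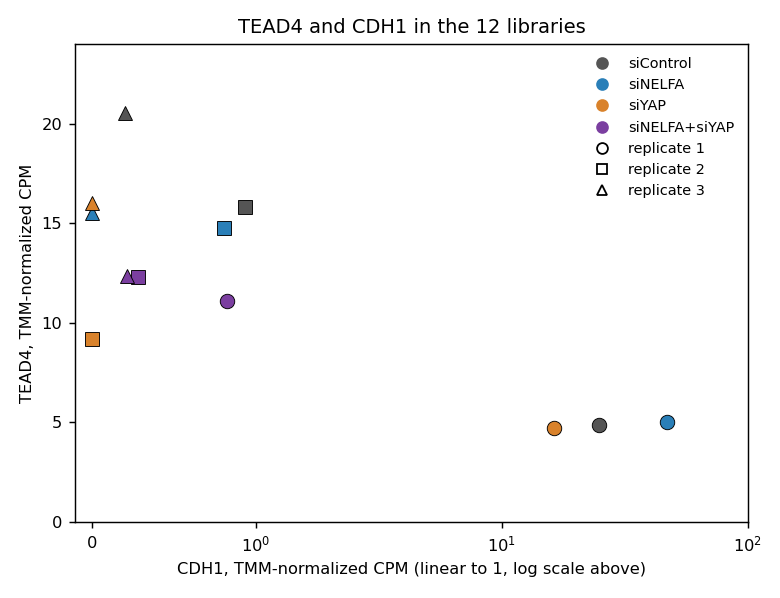
TEAD4 (y axis, linear) against the epithelial marker CDH1 (x axis, linear to 1 CPM and logarithmic above), both in TMM-normalized CPM, with 1 point per library. Replicate 1 of siControl, siNELFA and siYAP stands alone at 16.3 to 47.0 CPM of CDH1 and 4.71 to 5.02 CPM of TEAD4.

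VGLL4, which competes with YAP1 and TAZ for TEAD, showed no change past its error in any comparison. It held 29.2, 29.5 and 43.3 CPM in siControl, 31.5, 32.1 and 36.9 in siNELFA, 37.7, 32.5 and 35.9 with siYAP and 35.3, 36.5 and 43.3 with both pools. All groups overlapped siControl. The log2 fold changes against siControl were -0.02 (interval -0.52 to 0.48), 0.05 (interval -0.46 to 0.56) and 0.16 (interval -0.28 to 0.61). With YAP1 lowered, VGLL4 stood at 84.2 to 100.6 TPM per 100 TPM of YAP1 with siYAP and 118.4 to 165.8 in siNELFA+siYAP, against 13.4 to 23.5 in siControl. By counts per kilobase of merged exon VGLL4 stayed below YAP1, at 62.7 to 83.5 per 100 of YAP1 with siYAP, 70.1 to 94.6 with both pools and 8.48 to 15.4 in siControl. VGLL4 shares 1597 bp of exon with ATG7 on the opposite strand, which had 688 to 1663 counts, and the strand setting of the counting is not given in the sources used here, so part of its reads cannot be assigned with certainty. Opposite-strand exon overlaps of YAP1, WWTR1 and TEAD2 involved genes with at most 18 counts. Of the other vestigial-like genes, which also bind TEAD, VGLL1 had 0 counts in every library, which allows up to 3 in each, and VGLL2 at most 2. VGLL3 held 25.3, 24.6 and 31.5 CPM in siControl and 12.8, 16.6 and 21.8 CPM in siYAP, a log2 fold change of -0.67 (SE 0.26, adjusted p = 1.00 by edgeR). In siNELFA it held 34.0, 22.6 and 42.4 CPM and in siNELFA+siYAP 22.5, 24.1 and 22.8.

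TEAD1 made up a smaller part and TEAD3 a larger part of the TEAD transcripts in the groups that received siNELFA, and TEAD3 a larger part with siYAP alone as well. By TPM, TEAD1 made up 73.0%, 65.4% and 65.9% of the 4 TEAD genes in siControl, 59.7%, 61.5% and 58.96% in siNELFA, 65.5%, 67.5% and 61.7% with siYAP and 54.9%, 50.9% and 52.1% with both pools. TEAD3 made up 15.4% to 16.8% in siControl, 20.3% to 28.8% in siNELFA, 18.5% to 22.2% with siYAP and 24.5% to 30.1% with both pools. The siControl shares did not overlap those of siNELFA or of the double knockdown for either gene, and with siYAP alone they overlapped for TEAD1 but not for TEAD3. From counts per kilobase of merged exon, TEAD1 made up 52.0 ± 4.98% in siControl and 33.3 ± 0.38% in siNELFA+siYAP, and TEAD3 28.7 ± 0.83% and 44.5 ± 2.43% (SD, n = 3). On that scale siYAP alone also lay apart from siControl for both genes, with TEAD1 at 40.4% to 46.7% against 48.3% to 57.6% and TEAD3 at 33.6% to 42.2% against 28.2% to 29.7%. The sum of the 4 TEAD genes was 144.0 ± 23.95 TPM in siControl, 110.3 ± 17.8 in siNELFA, 135.6 ± 11.0 with siYAP and 97.5 ± 3.48 with both pools. YAP1 and WWTR1 together stood at 0.90 to 1.17 TPM per TPM of TEAD in siControl, at 0.95 to 1.35 in siNELFA, at 0.38 to 0.54 in siYAP and at 0.52 to 0.60 in siNELFA+siYAP.

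**Figure D3:**
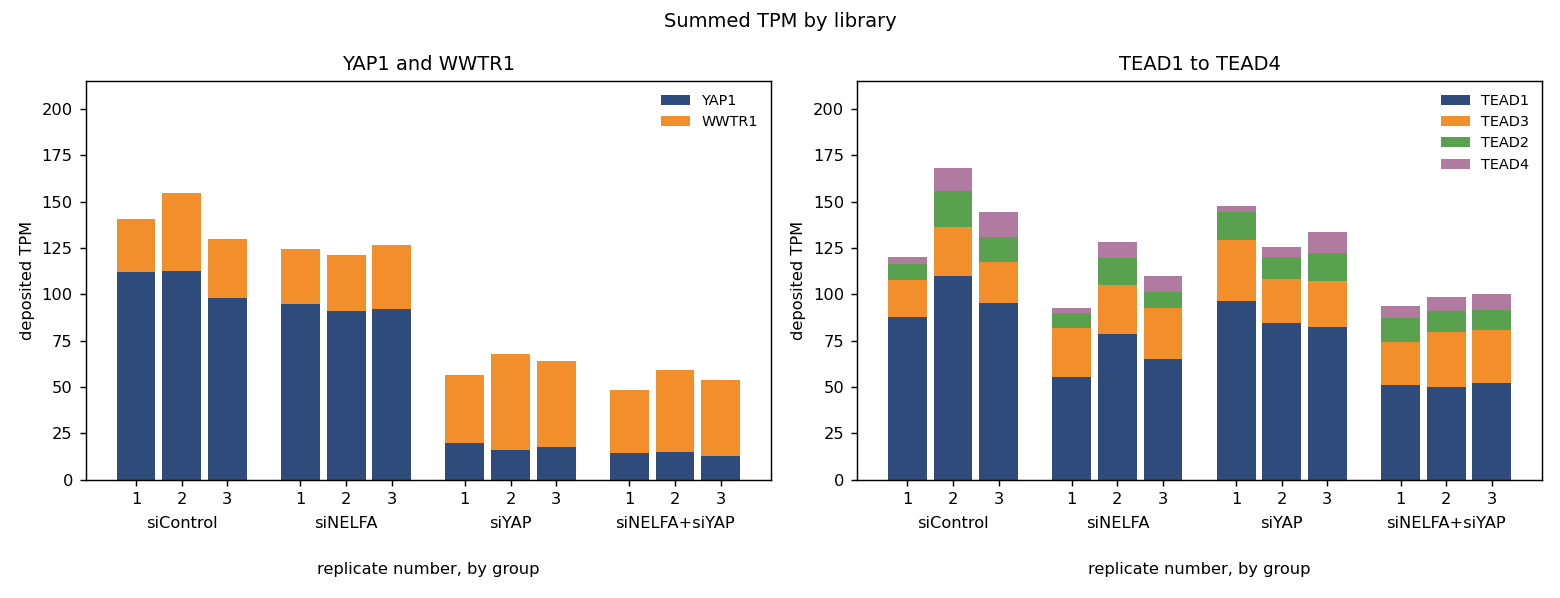
Deposited TPM (y axes, from 0) of YAP1 and WWTR1 (left) and of TEAD1 to TEAD4 (right), stacked for each of the 12 libraries (x axes, replicate number by group). WWTR1 makes up 20.4% to 27.3% of the left-hand bars without siYAP and 65.2% to 76.4% with it, and the TEAD1 part of the right-hand bars is smallest in siNELFA+siYAP.

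The order of the members by length-scaled level depended on the table. In siControl, by TPM, YAP1 and TEAD1 came first with overlapping ranges, followed by WWTR1 (34.2), TEAD3 (23.0), VGLL4 (18.0), TEAD2 (13.8) and TEAD4 (9.84), and the ranges of the last 4 overlapped from neighbour to neighbour. By counts per kilobase of merged exon, TEAD3 (19.5) came before WWTR1 (10.3), and VGLL4 came last at 4.73. In siYAP the TPM order was TEAD1 (87.9), WWTR1 (45.2), TEAD3 (27.0), YAP1 (17.8), VGLL4 (16.5), TEAD2 (14.04) and TEAD4 (6.65), with YAP1, VGLL4 and TEAD2 overlapping in turn. With both pools, YAP1 (14.1 TPM) came below VGLL4 (19.1 TPM), without overlap, whereas by counts per kilobase YAP1 (6.60) came above VGLL4 (5.33), also without overlap.

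Counted over the members, 0 of 7 were called in siNELFA, where 0.00564% of 17727 tested genes were, and 1 of 7 in siYAP, where 0.00578% of 17296 genes were, the 1 gene being YAP1. In siNELFA+siYAP 2 of 7 were called, YAP1 and TEAD1, against 0.428% of 17533 genes. Against siYAP, the double knockdown called 0 of 7 with 0.035% of genes, and against siNELFA 1 of 7, YAP1, with 0.00573%. With the replicate block, siNELFA called 1 of 7, TEAD1, beside 5.21% of genes, and siYAP 1 of 7, YAP1, beside 0.0173%. At a nominal p under 0.05 the counts were 2 of 7 in siNELFA (4.46% of genes), 1 of 7 in siYAP (1.3%), 3 of 7 in siNELFA+siYAP (18.5%), 1 of 7 against siYAP (15.5%) and 2 of 7 against siNELFA (6.62%). The interaction called 0 of 7 members and 0 of all 18525 genes (0.0%) by edgeR, and 0 by DESeq2. At a nominal p under 0.05 by edgeR it had 0 of 7 members and 326 genes (1.76%), and by DESeq2 559 genes. The median log2 fold change of the members was -0.06 with siNELFA, 0.05 with siYAP and 0.0052 with both, against medians over all tested genes of 8.0e-05, -0.0017 and -0.026.

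**Figure D4:**
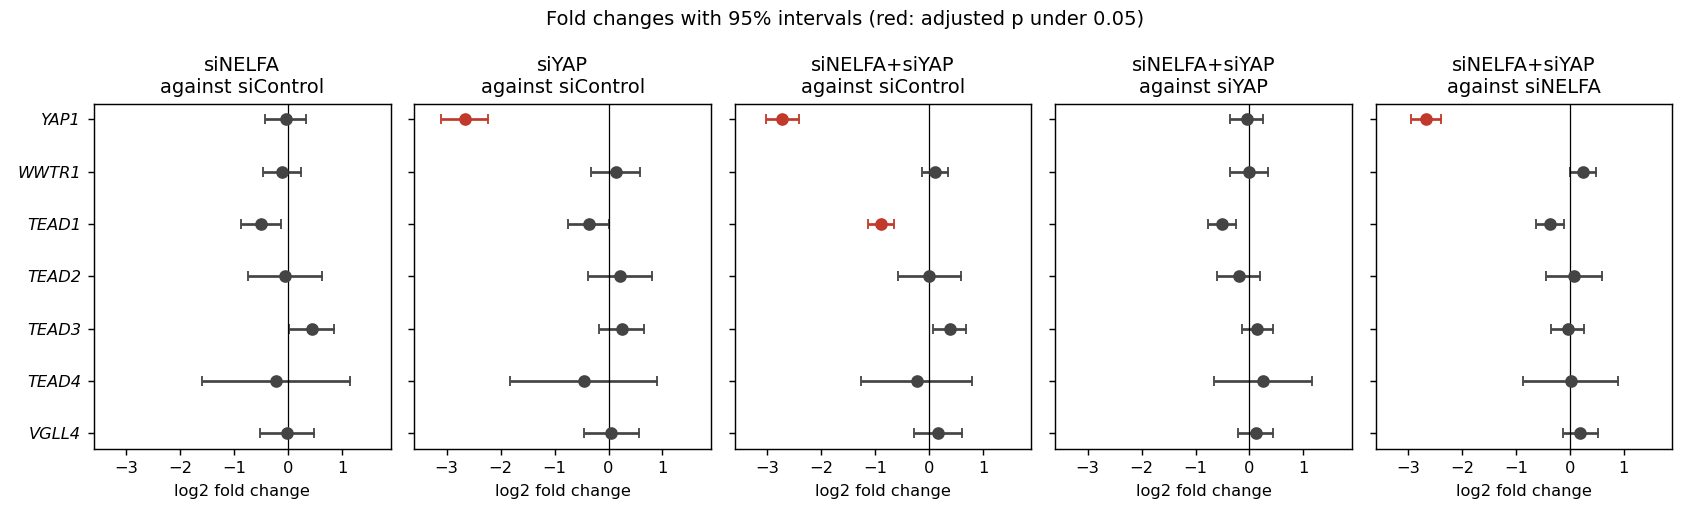
Log2 fold changes (x axes) of the 7 genes (y axis) in the 5 pairwise comparisons, as edgeR estimates with 95% intervals, in red where the adjusted p was under 0.05. YAP1 is red wherever siYAP is compared with a group without it, TEAD1 is red in siNELFA+siYAP against siControl, and the TEAD4 intervals are the widest.

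Upstream of the complex, no gene of the kinase cascade was called. Of the 19 genes on the list of the Hippo kinase cascade, which includes LATS1, LATS2, STK3, STK4, SAV1, MOB1A and NF2, 18 were tested and 0 were called in any of the 6 comparisons by edgeR. In siNELFA+siYAP 2 of them were below a nominal p of 0.05, both lower, STK3 (the kinase MST2) at -1.08 and LATS2 at -0.41, where 18.5% of all tested genes were. In siYAP the median of the 18 was -0.19, against -0.0017 over all tested genes, with 16 of 18 below 0. Of the 18, 1 was below a nominal p of 0.05 there, beside 1.3% of all tested genes. In siNELFA the median was 0.04, against 8.0e-05 over all tested genes. There 0 of the 18 were below a nominal p of 0.05, beside 4.46% of all tested genes. The 4 genes on the list of YAP1 and TAZ turnover, the ubiquitin ligase subunits BTRC and FBXW11 and the kinases CSNK1D and CSNK1E, were called in 0 comparisons by edgeR. In siNELFA+siYAP 2 of the 4 were below a nominal p of 0.05, CSNK1D at 0.27 and CSNK1E at 0.33, again beside 18.5% of all tested genes.

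Of 22 YAP1 and TEAD target genes, all tested and 3 of them (LATS2, AMOTL2 and PTPN14) also on the kinase list, edgeR called 1 with both pools and 0 with either pool alone. That gene was ANKRD1, a nuclear ankyrin repeat protein, at -1.17 (SE 0.13, adjusted p = 0.0318 by edgeR). At a nominal p under 0.05 the counts were 0 higher and 2 lower with siYAP, 4 higher and 0 lower with siNELFA, and 2 higher and 6 lower with both, beside 1.3%, 4.46% and 18.5% of all tested genes in either direction. In the double knockdown against siNELFA, 0 were higher and 12 lower, beside 6.62% of all tested genes, with a median of -0.49. The median of the 22 was -0.29 with siYAP, 0.18 with siNELFA and -0.13 with both. With the replicate block, 5 targets rose and 1 fell in siNELFA, beside 5.21% of all tested genes called, among them CTGF at 1.29 (SE 0.11, adjusted p = 7.14e-05 by edgeR), CYR61 at 0.87 (SE 0.12), F3 at 0.68 and IGFBP3 at -0.90, while in siYAP 1 fell, TGFB2, at -1.18 (SE 0.12, adjusted p = 0.0185 by edgeR). In siNELFA, CTGF and CYR61 were higher in the paired fit and ANKRD1 was at -0.043. Among the members, YAP1 and WWTR1 mRNA showed no change past their error there. TEAD1 was lower, and TEAD3 was at 0.43, short of the adjusted threshold. A link between these values was not tested.

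Among 12964 genes averaging at least 50 counts, the genes whose log2 CPM followed each member most closely across the 12 libraries were ranked by Pearson r, as a description of libraries that share groups and depth. For YAP1 they were ARHGEF10 (0.93), ANKRD1 (0.91, and 0.98 over the 9 libraries without the 3 that stood apart) and UAP1 (0.89). For TEAD1 they were SUMO3 (0.98), BEND7 (0.96) and CDCA7L (0.96), and for TEAD3 ARF5 (0.97), ERGIC3 (0.95) and YIPF3 (0.94). For WWTR1 they were CEP19 (0.92), AC009948.5 (0.89) and TYW3 (0.88). For TEAD4 they were DMKN (0.98), PNPT1 (0.97) and SNORD86 (0.97), which fell to 0.90, 0.94 and 0.89 over the 9 libraries. For TEAD2 they were SPATA33 (0.90), IRS1 (0.84) and CIAO1 (0.83), and for VGLL4 MOAP1, ZSCAN32 and SUSD5, none above 0.83. Between members, YAP1 and WWTR1 had r = -0.59 over the 12 libraries and -0.80 over the 9.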

How the data were processed

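Stranded libraries of total RNA depleted of ribosomal RNA were read in pairs of 150 bp. For the deposited counts, the authors mapped reads with STAR (2 passes, GRCh38, Ensembl 87) and assigned them to genes with featureCounts, unnormalized. TPM is the authors' own estimate per library in a second deposited table, and FastQC, cutadapt, Cufflinks and DESeq2 appear in the submitters' processing notes. Tool versions and the strand and pair settings of counting are not given in the sources used here. In each library, 78.7% to 82.4% of gene values from 1 to 20 were even numbers, so fragments may be fewer than counts. A table of FPKM in 12 columns was not used. Lines of the TPM table that repeat a gene identifier (94) were summed, and no member was among them.

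Counts were compared with edgeR 4.0.16 in R 4.3.3 (quasi-likelihood test, TMM factors, the 6 libraries of the compared groups, no block), and the interaction used all 12. Genes passed filterByExpr at a minimum of 10 counts, a total of 15 and a proportion of 70%. SE is the log2 fold change divided by the square root of F. All 7 members passed in each of the 6 comparisons. CPM used TMM factors over the 12 libraries. Alternatives were RLE factors, no filter, DESeq2 1.42.0, limma 3.58.1 on log2(TPM + 1) and log2(TPM + 0.1) for genes with a mean TPM of at least 0.5, the replicate block, all 12 libraries in 1 fit, and each library left out. Leaving out replicate 1 of both groups in siNELFA and siYAP against siControl was chosen after seeing the data. Figures were drawn with matplotlib 3.10.9.

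Replicate numbers come from the labels. Deviations of same-numbered libraries from their group means correlated by 0.65 to 0.89 across 12971 genes among siControl, siNELFA and siYAP. They correlated by -0.051 to 0.028 with siNELFA+siYAP. The main fits had no block in any comparison. For the first 3 groups the alternative fit with the replicate block was therefore read as a fit of pairs. For siNELFA+siYAP the block was run too, though those libraries share only a number with the others. Deviations within a group offset each other, and replicate 1 stood apart in those first 3 groups. The correlations of replicates 2 and 3 therefore partly follow from replicate 1, and whether those libraries are matched was not tested. The members, the lists and the rule for naming genes were chosen with earlier results of these data known. Named are the 7 members, the other vestigial-like genes, list genes past the adjusted threshold in the main or blocked fit, and the 3 genes most like each member by Pearson r of log2(CPM + 0.5). The list genes STK3, LATS2, CSNK1D and CSNK1E were named after their values were seen. The functions were tested on simulated counts.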

Additional observations from a re-analysis of the deposited data

How the results depend on the processing

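Among log2 fold changes of the members, 279 of the values under the alternatives other than leaving out a library kept their direction and side of the threshold, 2 newly passed it, 3 no longer passed it and 17 changed sign. With libraries left out the same counts were 235, 4, 10 and 45. Outside the fits with a library left out, the changed signs were of small values. With a library left out, signs also changed for TEAD4, over wider ranges that are given below. VGLL4 in siYAP turned to -0.11 by limma at both pseudocounts and to -0.088 without replicate 1 of either group. TEAD2 in siNELFA+siYAP turned to -0.17 and -0.18 by limma at pseudocounts of 1 and 0.1. WWTR1 in siNELFA+siYAP against siYAP turned to 0.0017 without a filter. In the interaction, YAP1 turned to 0.0055, 0.0063 and 0.0045 with RLE factors, no filter and DESeq2, TEAD1 to 0.0081, 0.0082, 0.0066 and, with the replicate block, 0.0083, WWTR1 to -0.075 and -0.076 by limma, and TEAD2 to 0.092 and 0.10 by limma.

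The replicate block called 1 member in siNELFA (TEAD1) against 0 without it, and left siYAP at 1. The siNELFA+siYAP libraries share only a number with the others. There the block called 1 member against siControl, as did limma at both pseudocounts, in place of 2, and it changed no other count of members. Against siYAP, DESeq2 called 1 member (TEAD1). Leaving out single libraries gave 0 to 1 members in siYAP, 0 to 4 in siNELFA+siYAP against siControl, 0 to 1 against siYAP and 1 to 2 against siNELFA. The 4 came without siControl replicate 1, where 4531 of 18587 tested genes were called. The 1 against siYAP came without siYAP replicate 1, beside 2937 of 17773 genes. The 2 against siNELFA came without siNELFA replicate 1, beside 228 of 18286 genes. The causes were not tested.

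Counts of called genes moved more. In siNELFA, against 1, there were 3 without a filter, 17 by DESeq2, 4 and 4 by limma, 924 with the replicate block, 8 with all 12 libraries, 18 without replicate 1, and 0 to 1 with a library left out. In siYAP, against 1, there were 3 and 4 by limma, 3 with the block and 0 to 1 with a library left out. In siNELFA+siYAP against siControl, against 75, there were 381 without a filter, 935 by DESeq2, 11 and 17 by limma, 2 with the block and 0 to 4531 with a library left out, the highest without siControl replicate 1. Against siYAP, against 6, there were 222, 504, 3 and 3, 1 with the block and 0 to 2937, the highest without siYAP replicate 1. Against siNELFA, against 1, there were 26 without a filter, 49 by DESeq2, 6 and 7 by limma and 1 to 228 with a library left out, the highest without siNELFA replicate 1.

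With a library left out, the ranges of member fold changes that crossed 0 were these. In siNELFA they ran from -0.12 to 0.043 for YAP1, -0.28 to 0.17 for TEAD2, -0.61 to 0.18 for TEAD4 and -0.11 to 0.20 for VGLL4. In siYAP they ran from -0.052 to 0.26 for VGLL4. In siNELFA+siYAP they ran from -0.20 to 0.23 for TEAD2 and -0.61 to 0.17 for TEAD4. Against siYAP they ran from -0.14 to 0.0026 for YAP1, -0.16 to 0.080 for WWTR1 and -0.085 to 0.77 for TEAD4. Against siNELFA they ran from -0.089 to 0.30 for TEAD2, -0.14 to 0.028 for TEAD3 and -0.35 to 0.26 for TEAD4. In the interaction they ran from -0.095 to 0.077 for YAP1, -0.040 to 0.19 for WWTR1, -0.083 to 0.077 for TEAD1, -0.36 to 0.094 for TEAD2 and -0.076 to 0.24 for VGLL4. With 3 libraries a group, and TEAD4 on 45 to 397 counts, the intervals given for each gene are the ranges of change that the fits do not exclude.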
